A study of Mus musculus with 20 samples.

Results

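The genes described here are 10 genes of antioxidant defence and of the NADPH supply on which it draws: Nfe2l2, Nqo1, Hmox1, Gclc, Gclm, Txnrd1, Gpx2, Srxn1, Slc7a11 and Nnt. Members were every non-control probe on the array that carried the name of such a gene, which gave 21 probes for 10 of the 27962 gene names on the array. RNA was taken from whole mouse trachea in 4 groups of 5 samples, each hybridized to 1 one-colour Agilent array of 41174 probes. The groups were uninjured wild-type (WT-control), uninjured Myd88 knockout (KO-control), and wild-type and knockout tracheas collected 3 days after 2% polidocanol (WT-injury, KO-injury), a detergent that strips the tracheal epithelium. Myd88 is the adaptor of most Toll-like receptors and of the interleukin-1 receptor family. All mice are labelled C57/Bl6 and 4 months old. Per the study's methods, the Myd88KO mice had been backcrossed to C57/Bl6JOlaHsd and were bred KO to KO. The wild-type mice were of this same substrain, C57/Bl6JOlaHsd, but came from a separate colony. Genotype and colony therefore cannot be told apart in any comparison of knockout with wild-type. The methods name 5 biological replicates per group, and the labels do not say that a sample is a single mouse.

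Nfe2l2 encodes Nrf2, a transcription factor that is degraded in resting cells and, after oxidative or electrophilic stress, enters the nucleus and switches on genes that hold an antioxidant response element. Nqo1, Hmox1, Gclc, Gclm, Txnrd1, Gpx2, Srxn1 and Slc7a11 are among its known targets: they reduce quinones, break down haem, import cystine, build glutathione, and use NADPH or glutathione to clear peroxides. Nnt is not a classical Nrf2 target. It encodes the transhydrogenase of the inner mitochondrial membrane, which uses the proton gradient to make NADPH from NADH, and the C57BL/6J stock is known for an internal deletion in this gene. Airway epithelium is the tracheal tissue that meets inhaled oxidants first.

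The response element can be read in the sequence for part of the group. RefSeq promoter windows (GRCm38.p6, 250 bases before to 50 bases after a gene start) were at hand for 7 of the 10 genes, as 9 windows. The element's core, TGACNNNGC, was searched on both strands. It was found once in each of 4 member windows, those of Nfe2l2, Gclm, Srxn1 and 1 of the 3 windows of Txnrd1, and in 12.4% of all 32851 windows. The matches that lie before the gene start are shown 5′ to 3′ on the gene's strand, with the match in capitals, because this element is what the Nrf2 targets among the members are known for. The match of Srxn1 lies after the start. No sequence was at hand for Nnt, Hmox1 and Gclc.
Nfe2l2, chr2:75704885-75704913, minus strand: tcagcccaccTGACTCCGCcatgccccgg
Gclm, chr3:122245413-122245441, plus strand, element on the other strand: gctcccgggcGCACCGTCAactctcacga
Txnrd1, chr10:82859104-82859132, plus strand, element on the other strand: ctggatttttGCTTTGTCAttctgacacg
A match of these letters is a description of the sequence and was not tested as a binding site.

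Levels are given as the log2 intensity of a probe minus the 75th percentile over its array's probes, so that 0 is the intensity below which 75% of probes fall. A level is comparable between arrays for 1 probe and not between probes. A probe was tested when it was well above background on at least 10 of 20 arrays, which 26063 probes and 17 member probes were. The 4 member probes that were not tested are 3 of Slc7a11 and 1 of Nnt. A probe was called differentially expressed at an adjusted p under 0.01 (limma, Benjamini-Hochberg over all tested probes). Over the arrays, 57.5% to 67.8% of spots were well above background. Within a group, arrays correlated at r = 0.925 to 0.99 across probes.

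The KO-injury arrays differed among themselves. Scgb1a1, the main secreted protein of club cells, was at 4.79 on KO-injury array 1 and at -0.84, 2.72 and 0.18 on 3 others, with 1 array missing because its spot was an outlier, against -1.16 to -0.08 in WT-injury. Cd68, a macrophage gene, was at -0.27 and -1.27 on KO-injury arrays 1 and 5, within or below its range in uninjured knockouts (-0.92 to -0.25), and at 0.65 to 2.51 on the other 3. The summed level of the club and secretory list was 9.96 and 10.6 on arrays 1 and 5 and 9.11 to 9.55 on the other 3. Array 3 resembled arrays 1 and 5 in other lists: its macrophage sum was 2.79 (3.07 and 1.90 on arrays 1 and 5, 4.36 and 4.33 on arrays 2 and 4) and its neutrophil sum -0.03 (1.21 and -1.33, against 4.25 and 5.42). Arrays 1 and 5 of every group, KO-injury among them, were scanned on the second of 2 days. Calls, and the member values that moved most, are given with and without KO-injury arrays 1 and 5, a split chosen after these values were seen that keeps array 3. Without them KO-injury holds only arrays of the first day, beside groups of both days. In that fit the split and the scan day cannot be told apart. Myd88 itself was 0.21 lower (log2) in uninjured knockouts, with overlapping groups (adjusted p = 1, limma), and 0.77 lower in injured ones (adjusted p = 0.00824). With injury it differed by 0.58 in wild-type (adjusted p = 0.0111, limma, not called) and by 0.02 in Myd88KO. The level of Myd88 therefore does not check the labels of the uninjured arrays. Whether its probe lies in the deleted part of the gene is not given in the sources used here.

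In uninjured tracheas, Nnt was 3.03- to 3.53-fold higher in Myd88KO than in wild-type, and no other of the 10 genes was called. The 3 tested Nnt probes all rose, which makes 3 of 17 member probes called. Among all tested probes, 0.384% were called, 0.188% higher and 0.196% lower.

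Probe 1 of Nnt (A_52_P395228, chr13:116544819-116544878, minus strand, in the coordinates of the files, whose genome build is not stated) had levels of 1.46, 1.25, 0.77, 1.38 and 1.52 in WT-control. In KO-control its levels were 3.25, 2.92, 2.99, 3.04 and 3.27. The lowest knockout lay above the highest wild-type by more than the whole range of either group. The difference was 1.82 (SE 0.22, 3.53-fold, adjusted p = 7.22e-05, limma).

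Probe 3 of Nnt (A_51_P113395, chr13:116545112-116545170) was between -1.49 and -1.09 in WT-control and between 0.21 and 0.44 in KO-control. It was the tightest of the 3 probes in these groups and differed by 1.66 (SE 0.18, adjusted p = 1.61e-05, limma). Probe 2 (A_51_P113399, chr13:116545398-116545457) was at -1.82, -0.85, -1.23, -0.94 and -1.80 in WT-control and at -0.22, 0.85, 0.32, 0.51 and -0.09 in KO-control. It differed by 1.60 (SE 0.28, adjusted p = 0.0041, limma). Its groups do not overlap, but within each of them arrays 1 and 5 were the lowest. All 3 probes lie within 639 bases of one another, so they read a single stretch of the transcript.

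After injury the difference in Nnt was still present. Probe 1 was at 1.57, 1.04, 0.93, 1.12 and 1.20 in WT-injury and at 1.89, 2.65, 2.42, 2.09 and 3.36 in KO-injury. The groups do not overlap, although KO-injury array 1 came within 0.32 of the wild-type array on its slide. The difference was 1.31 (SE 0.22, 2.48-fold, adjusted p = 0.00354, limma). Probe 2 differed by 1.61 (adjusted p = 0.00383) and probe 3 by 1.47 (adjusted p = 7.69e-05, limma). Again 3 of 17 member probes were called, all of Nnt and all higher in the knockout, against 0.38% of all tested probes, 0.15% higher and 0.23% lower. With the 2 injured groups fitted alone, the differences were the same and none was called, at an adjusted p of 0.115, 0.0413 and 0.0236 (limma). Without KO-injury arrays 1 and 5 the 3 probes differed by 1.21, 1.86 and 1.57 and were all called (adjusted p at most 0.00243, limma; 0.339% of all tested probes).

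The 20 arrays lay on 5 slides, each with 1 array of every group, so the genotypes can be compared within a slide. Nnt was higher in the knockout on 5 of 5 slides for each probe, both without injury and after it. The within-slide difference of probe 1 was 1.66 to 2.22 in uninjured tracheas and 0.32 to 2.16 in injured ones. For probe 3 it was 1.51 to 1.73 and 0.69 to 2.11. Within the first and second scan day, probe 1 differed by 1.85 and 1.77 in uninjured tracheas.

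**Figure D1:**
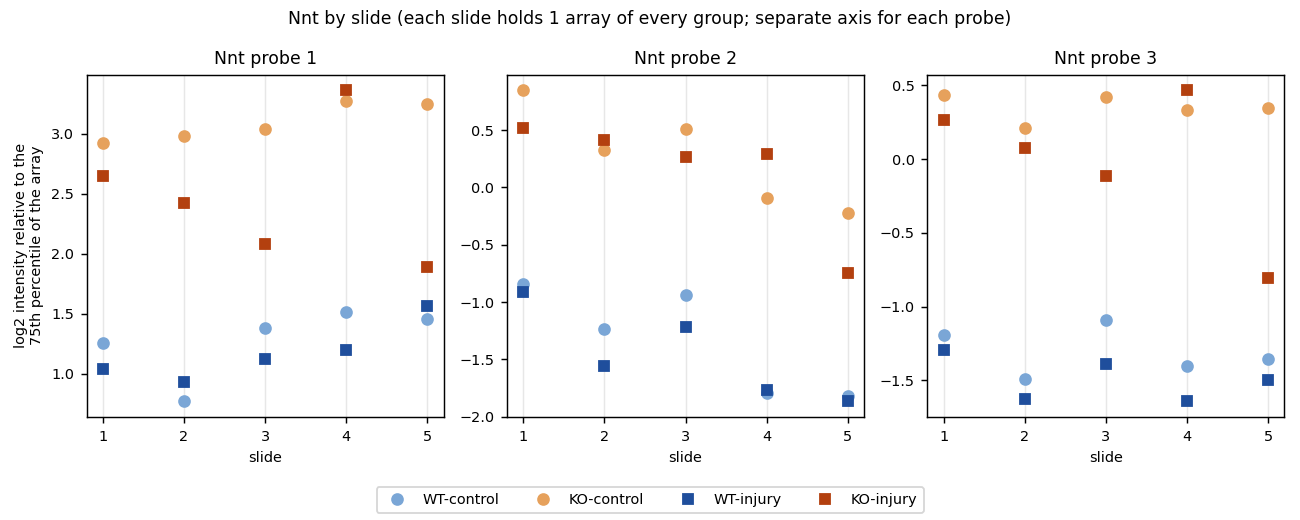
Level of Nnt (log2 intensity relative to the 75th percentile of the array, vertical axis) by slide (horizontal axis) for its 3 tested probes, 1 point per array, circles for uninjured and squares for injured tracheas. On every slide both knockout arrays lie above both wild-type arrays, closest on slide 5 (replicate 1 of each group), where KO-injury probe 1 is at 1.89.

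The 3 probes were compared with one another in the size of the genotype difference, and no pair passed the test. In an exact permutation test of the difference between each pair of probes (2-sided, 5 against 5 arrays, smallest possible p 0.00794), the adjusted p over 6 tests ranged from 0.644 to 0.746. The largest disagreement was between probes 1 and 2 in injured tracheas, -0.30. The 4th Nnt probe (A_52_P593890), 57.6 kb away, was well above background on 0 of 20 arrays and gives no level.

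No gene next to Nnt was called. Within 2 Mb on either side in the coordinates of the files, 8 tested probes name 5 genes or transcripts, among them Paip1, Mrps30 and Fgf10. None of the 8 was called in either genotype comparison, with adjusted p at least 0.304 (limma), and their uninjured differences ran from -0.29 to 0.22. The probes whose levels followed Nnt probe 1 most closely over the 20 arrays named genes on other chromosomes: Tmx4 (r = 0.97), Cuedc1 (0.95), Eif2s2 (0.95), Zfp704 (0.95) and Myh7 (0.94). These 20 arrays fall into groups, which raises r for any gene that differs by genotype. After each group's mean was removed, r was 0.82, 0.84, 0.71, 0.54 and 0.55 in the same order. This is a description over arrays that share slides.

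Levels of brown fat genes differed between the genotypes as well. Ucp1, Cidea and Elovl3, genes of heat-producing brown adipocytes, had differences of 2.42, 1.54 and 2.61 in uninjured tracheas, with no overlap between groups, and were not called (adjusted p = 0.199, 0.233 and 0.121, limma). The 2 probes of Ppargc1a differed by 0.02 and -0.06. After injury Elovl3 differed by 3.30 (adjusted p = 0.0199, limma). Of the 4 brown adipocyte genes (5 probes), 0 were called. Their summed level was 4.69 to 5.70 in WT-control and 6.44 to 6.81 in KO-control, and 3.02 to 5.78 in WT-injury and 4.53 to 6.61 in KO-injury. In bulk tissue, more cells of a type and more RNA per cell cannot be told apart.

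After injury the summed level was 6.61, 4.59, 4.53, 4.78 and 6.29 on KO-injury arrays 1 to 5 and 4.31, 3.02, 3.38, 5.78 and 4.54 on the WT-injury arrays of the same slides. It was higher in the knockout for replicates 1, 2, 3 and 5 and lower for replicate 4, where Nnt probe 1 was at 2.09 in the knockout and at 1.12 in the wild-type. The part of brown fat in the Nnt difference was not tested. The neutrophil list moved with genotype too: its summed level was 1.33 to 5.06 in WT-control and -1.47 to 1.24 in KO-control, with 0 of 5 genes called, and its part was not tested. No gene of the club, ciliated, basal, macrophage, white fat, muscle, cartilage or thyroid lists was called in either genotype comparison. Among the white fat genes, Plin1 too did not overlap in uninjured tracheas, at 2.15 to 3.09 in WT-control and 3.12 to 3.63 in KO-control. Adipoq and Cfd did overlap.

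**Figure D2:**
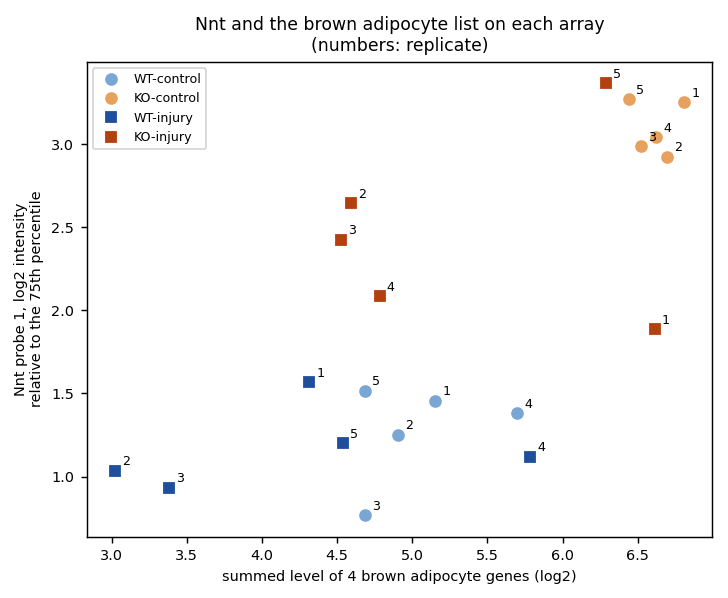
Level of Nnt probe 1 (log2 intensity relative to the 75th percentile, vertical axis) against the summed level of the 4 brown adipocyte genes (horizontal axis). The summed level is the log2 of their summed intensities, in which bright genes weigh most. Each point is 1 array with its replicate number. The genotypes are apart on Nnt, at 1.89 or more against 1.57 or less, and on brown fat they are apart in uninjured tracheas (6.44 or more against 5.70 or less) and overlap in injured ones.

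Injury by itself did not call Nnt in either genotype. Probe 1 differed by -0.10 in wild-type (adjusted p = 0.809) and by -0.61 in Myd88KO (95% interval -1.08 to -0.15, adjusted p = 0.135, limma). Without KO-injury arrays 1 and 5 it differed by -0.71 in Myd88KO (adjusted p = 0.0159, limma). Probes 2 and 3 differed by -0.13 and -0.37 in Myd88KO with all arrays. The injury responses of the genotypes differed by -0.51 for probe 1, an interval of -1.17 to 0.15 (adjusted p = 0.566, limma).

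Nfe2l2, the regulator, had 4 tested probes, of which probes 1 and 2 lie nearest to its 3′ end. Probe 1 (A_51_P411271, chr2:75519430-75519489) was at 4.01, 3.72, 4.15, 3.60 and 4.09 in WT-control and at 3.57, 3.49, 3.49, 3.48 and 3.68 in KO-control. In WT-injury it was at 3.84, 3.88, 4.28, 3.73 and 3.89, and in KO-injury at 4.20, 3.84, 4.22, 4.11 and 3.96. The uninjured knockouts were the lowest and the tightest of the groups.

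The uninjured genotype difference of Nfe2l2 was -0.37 on probe 1 and -0.38 on probe 2, and neither was called (adjusted p = 0.544 and 0.648, limma). With injury in Myd88KO both probes were 0.52 higher, again not called (adjusted p = 0.041 and 0.0604), and all 5 injured knockouts lay above all 5 uninjured ones. The difference in injury response was 0.52 and 0.50 (adjusted p = 0.394 and 0.445). Without KO-injury arrays 1 and 5, injury in Myd88KO gave 0.52 and 0.59 (adjusted p = 0.033 and 0.0181). Probes 3 and 4 lie elsewhere in the gene and are annotated to other transcript records, and their injury differences in Myd88KO were 0.09 and -0.50 with all arrays and 0.18 and 0.11 without arrays 1 and 5.

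Glutathione synthesis starts with glutamate-cysteine ligase, of which Gclc is the catalytic and Gclm the modifier subunit. Gclc (A_51_P365019, chr9:77835053-77835112) was at 3.95, 2.57, 2.79, 3.15 and 3.31 in WT-control and at 1.95, 1.97, 2.37, 1.80 and 1.97 in WT-injury. The groups do not overlap. The difference was -1.14 (SE 0.29), or 2.20-fold lower, and just missed the threshold (adjusted p = 0.0134, limma). It was past the threshold under 8 of 14 other settings, among them the slide as a block (adjusted p = 0.00802) and without KO-injury arrays 1 and 5 (adjusted p = 0.0014). That last setting leaves the wild-type arrays as they are. It changes only the spread that the groups share and the set of tested probes (26252 in place of 26063). It is therefore no further reading of the wild-type difference.

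In Myd88KO, Gclc was at 3.13, 2.75, 3.27, 2.61 and 2.61 without injury and at 2.73, 1.52, 1.81, 1.52 and 2.99 after it. The high values after injury are those of arrays 1 and 5. With all arrays the difference was -0.76 (SE 0.29, adjusted p = 0.152, limma), and without those arrays it was -1.26 (SE 0.25, adjusted p = 0.00271, limma). In the fit without them Gclc was thus called lower after injury in both genotypes, 1 of 17 member probes in each, where 9.05% of all tested probes were called in wild-type and 7.5% in Myd88KO. The difference in injury response was 0.38 with all arrays (interval -0.47 to 1.23) and -0.12 without them. Gclm, the partner subunit, differed by -0.26 in wild-type (interval -0.71 to 0.19) and by 0.03 in Myd88KO (interval -0.42 to 0.48).

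Hmox1, haem oxygenase 1, degrades haem to biliverdin, iron and carbon monoxide. It was at 1.81, 0.92, 3.13, 1.30 and 1.20 in WT-control and at 3.18, 2.33, 1.86, 2.21 and 3.50 in WT-injury. The groups overlap through WT-control array 3, the highest of its group. The difference was 0.94 (SE 0.45, adjusted p = 0.188, limma) and was not called. Within the first and second scan day it was 0.35 and 1.83. In KO-injury, Hmox1 was at 1.29, 2.78, 0.64, 2.87 and 1.02, against 1.05 to 1.41 in KO-control: arrays 2 and 4 lay above every uninjured knockout, array 1 among them, and arrays 3 and 5 below them. That difference was 0.49 (adjusted p = 0.588, limma), and 0.87 without arrays 1 and 5 (adjusted p = 0.259). Between injured knockouts and wild-types it was -0.90 with all arrays and -0.52 without those (adjusted p = 0.424 and 0.731).

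Slc7a11 imports the cystine from which glutathione is built. Its tested probe (A_52_P368057) was well above background on 11 of 20 arrays, 2 in each uninjured group, 4 in WT-injury and 3 in KO-injury. It was at -4.12, -4.10, -4.05, -5.41 and -2.37 in WT-injury and at -5.31, -2.76, -3.60, -1.36 and -6.40 in KO-injury, the widest range of any tested member. The injury difference was 0.69 in wild-type and 1.28 in Myd88KO (adjusted p = 0.607 and 0.371, limma). Without KO-injury arrays 1 and 5, both of them not well above background, it was 2.60 in Myd88KO (adjusted p = 0.0129), and injured knockouts differed from wild-types by 1.43 in place of 0.12 (adjusted p = 0.522, limma). Within the first and second scan day, injured knockouts differed from wild-types by 1.94 and -2.61. A second probe (A_52_P298824) was well above background on no uninjured array of either genotype. It was so on 3 of 5 WT-injury arrays, at -4.32, -4.31 and -1.42, and on 2 of 5 KO-injury arrays. Another (A_51_P129502) was so on 1 WT-injury and 2 KO-injury arrays. The remaining probe (A_52_P663446) was well above background on 1 WT-control, 2 WT-injury and 3 KO-injury arrays.

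Txnrd1, the cytosolic thioredoxin reductase, ranged from 2.91 to 4.04 over the 20 arrays, and its differences in the 4 comparisons of groups lay between -0.25 and 0.07. Gpx2, a glutathione peroxidase of epithelia, ranged from 4.29 to 6.02. It was 0.47 lower in the knockout both without and with injury (intervals -1.04 to 0.10 in each). Srxn1, which repairs over-oxidized peroxiredoxins, was lower by 0.28, 0.43 and 0.43 in uninjured knockouts on its 3 probes (adjusted p at least 0.896, limma). Probes 2 and 3 of Srxn1 overlap in position and count as 1 reading.

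Nqo1, which reduces quinones with NADPH or NADH, varied more between arrays than between groups. It was at 2.51, 1.45, 3.13, 1.81 and 1.00 in WT-control, 2.07, 0.95, 0.89, 0.77 and 1.63 in KO-control, 0.60, 1.30, 1.49, 1.23 and 1.23 in WT-injury, and 3.27, 0.90, 0.59, 0.57 and 1.38 in KO-injury. The groups overlap in every comparison, and the interval of the uninjured genotype difference ran from -1.67 to 0.23. Without KO-injury arrays 1 and 5, the injury difference in Myd88KO was -0.57 in place of 0.08, and that between injured genotypes -0.48 in place of 0.17, neither called (adjusted p = 0.33 and 0.678, limma).

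**Figure D3:**
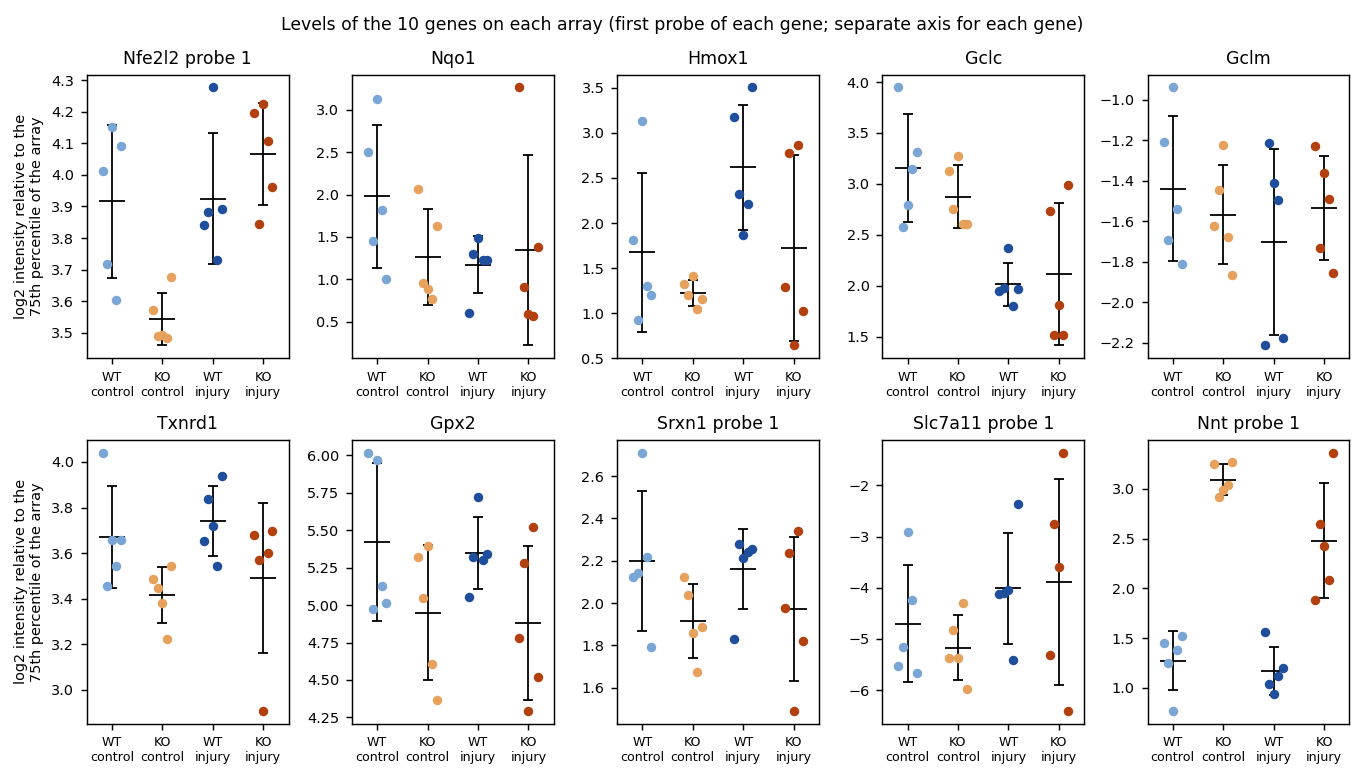
Level of each of the 10 genes (first probe; log2 intensity relative to the 75th percentile, separate vertical axes) in the 4 groups, 1 point per array with the mean (bar) and SD (whiskers, n = 5). Nnt is the only panel in which both knockout groups lie clear of both wild-type groups. For Gclc the injured wild-type arrays lie at 2.37 or less and the uninjured ones at 2.57 or more.

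As a group, the 14 tested probes of the 9 genes other than Nnt were called 0 times in all 5 comparisons. Among them 13 of 14 were lower in uninjured knockouts, with a median difference of -0.38, where the median over all tested probes was 0.04 and 43.3% of them were lower. These are fewer than 14 separate readings, since 4 probes are of Nfe2l2 and 3 of Srxn1, with overlapping positions in 2 of these. The smallest adjusted p among them was 0.544 (limma), and 2 had an unadjusted p under 0.05, while 5.59% of all tested probes did. WT-control array 3 was the highest of its group for 6 of the 10 genes. Its deviations from the group mean were 1.79 for Slc7a11 and 1.46 for Hmox1, and -0.36 for Gclc and -0.01 for Txnrd1. The share of that array in the lower values of the knockouts was not tested. In injured tracheas 8 of 14 were lower, with a median of -0.14. Groups that do not overlap were found for 4 of 17 member probes in uninjured tracheas (2.51% of all tested), 3 in injured tracheas (1.96%), 1 with injury in wild-type (12.6%) and 2 with injury in Myd88KO (3.45%).

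Injury called 0 of 17 member probes in wild-type and 0 in Myd88KO, where 5.26% (3.24% higher, 2.03% lower) and 0.376% (0.134% higher, 0.242% lower) of all tested probes were called (limma). At an unadjusted p under 0.05 there were 2 member probes in wild-type (26.4% of all tested) and 4 in Myd88KO (19.5%). The difference in injury response was called for 0 member probes and for 0% of all tested probes, and without KO-injury arrays 1 and 5 for 0 member probes and 0.0152% of all tested. At an unadjusted p under 0.05 it had 2 member probes, those of Nfe2l2, and 10.4% of all tested. The narrowest 95% interval of a member other than Nnt reached 0.29 to either side of its difference and the widest 1.59, in the 4 comparisons of groups, which is the precision that 5 arrays per group gave.

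**Figure D4:**
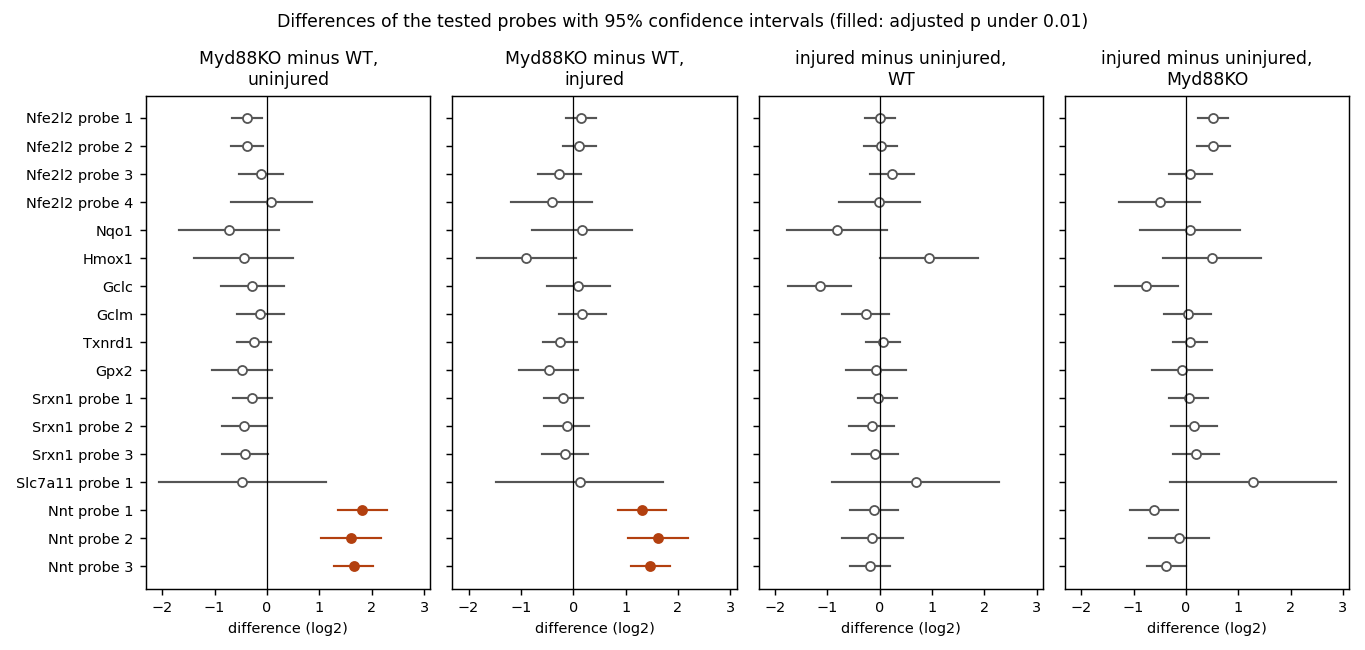
Differences (log2, horizontal axes) of the 17 tested member probes in 4 comparisons, with 95% confidence intervals from limma; filled points have an adjusted p under 0.01. The filled points are the 3 Nnt probes in both comparisons of knockout with wild-type, at 1.31 to 1.82.

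Levels of several members were high on the same array. WT-control array 3 was the highest of its group for 6 of the 10 genes, Nfe2l2, Nqo1, Hmox1, Gclm, Srxn1 and Slc7a11, with a median deviation from the group mean of 0.51. The basal cell keratin Krt14 was at 5.31 on that array and at 2.68 to 3.22 on the other 4. Its part in the levels of the members was not tested. Gclc, Txnrd1 and Nnt were not raised there, with deviations of -0.36, -0.01 and -0.51, and Nnt was the lowest of its group. After removal of group means, correlations between members other than Nnt over the 20 arrays took either sign: Gpx2 and Srxn1 correlated at r = 0.71, Hmox1 and Slc7a11 at 0.69, Nfe2l2 and Hmox1 at -0.02, Hmox1 and Gclc at -0.34, and Gclc and Slc7a11 at -0.65. These are descriptions over arrays that share slides and tissue composition.

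Genes around the members were read from 7 pathway lists of 102 genes, all measured (150 probes). In both genotype comparisons, in the injury of Myd88KO and in the difference in response, 0 of 102 were called (limma). At an unadjusted p under 0.05 these had, in the same order, 7, 15, 45 and 24 of 150 probes, beside 5.59%, 12.5%, 19.5% and 10.4% of all tested probes. With injury in wild-type 11 of 102 genes were called, 5 higher and 6 lower, which is 8.67% of their probes against 5.26% of all tested probes. The median difference of the 150 probes was -0.15, against 0.00 over all. These lists too were chosen with earlier results of these data known, so the shares describe them and test nothing.

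Glutathione S-transferases were 4 of the 6 genes that fell. In the list of glutathione synthesis and use, 4 of 25 genes fell and 1 rose with injury in wild-type. Gsta3, which conjugates glutathione to lipid peroxidation products and toxins, went from 5.61 to 6.66 in WT-control to 3.59 to 4.68 in WT-injury, a fall by 1.79 (SE 0.32, adjusted p = 0.00175, limma). Gstm1 fell by 1.44 and 1.75 on its 2 probes, Gsta1 by 1.73 and Gstm2 by 1.37 (adjusted p 0.0038, 0.00384, 0.00644 and 0.00418). Transferases of 1 class are near copies, so a probe may read more than 1 of them. Gpx7, a peroxidase of the endoplasmic reticulum, rose by 1.09 (adjusted p = 0.00447).

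Other lists held single changes with injury in wild-type. Of 18 thioredoxin and peroxiredoxin genes, Prdx4 rose by 0.86 on probe A_51_P200819 (adjusted p = 0.00214), with 0.80 on its other probe (adjusted p = 0.0761). Of 5 superoxide dismutase and catalase genes, Sod1 fell by 0.93 on 1 of its 2 probes (adjusted p = 0.00273), with -0.41 on the other. Of 17 genes listed under NADPH production, the mitochondrial folate enzymes Mthfd1l and Mthfd2 rose by 1.63 and 0.97 (adjusted p = 0.00675 and 0.00769). A place in this list does not show that an enzyme itself makes NADPH. Of 10 genes of haem and iron, haemopexin (Hpx), which binds free haem, rose by 2.59, from -4.31 to -3.77 in WT-control to -2.70 to 0.46 in WT-injury (adjusted p = 0.00038, limma). Of 15 other Nrf2 targets, Aox1, an aldehyde oxidase, fell by 1.26 (adjusted p = 0.00377), and of 12 regulators of Nrf2 none was called.

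These genes were selected by their call in wild-type, so values nearer to 0 in Myd88KO show nothing about genotype. With all arrays Gstm2 differed by -1.02 there and Hpx by 0.67 (adjusted p = 0.0544 and 0.336, limma). The difference in injury response was not called for any, with an adjusted p of at least 0.391. Without KO-injury arrays 1 and 5, 17 of 102 pathway genes were called with injury in Myd88KO, 2 higher and 15 lower, 13.3% of their probes against 7.5% of all tested. In the same fit 15 were called in wild-type, 7 higher and 8 lower, 11.3% against 9.05%. Gstm1 then fell by 1.54 in Myd88KO on 1 of its 2 probes (adjusted p = 0.000367; -1.42 and 0.0199 on the other) and Mthfd1l rose by 1.43 (adjusted p = 0.00269, limma).

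**Figure D5:**
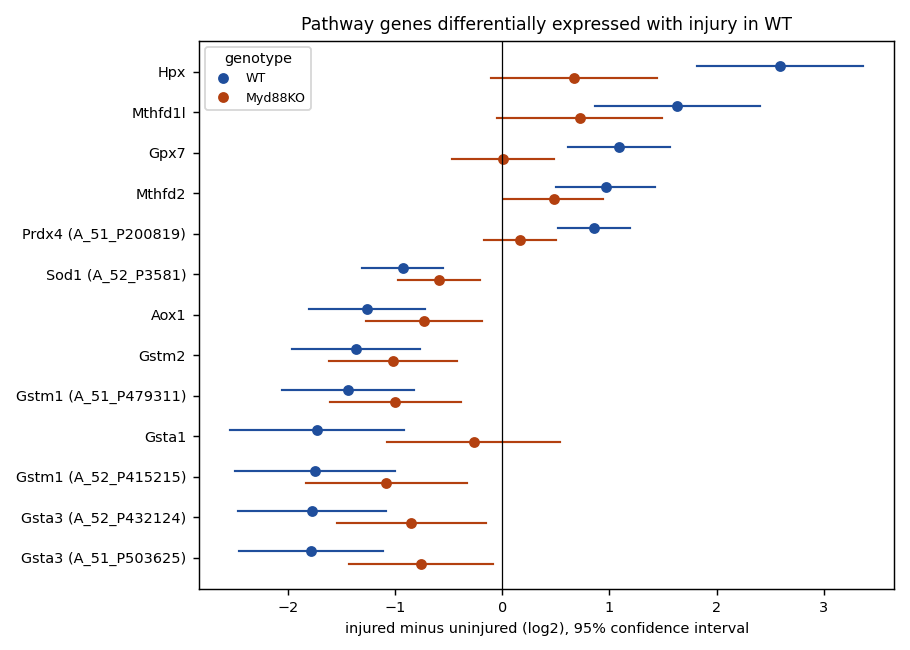
Differences with injury (log2, horizontal axis, with 95% confidence intervals) of the 13 probes of the 11 pathway genes called in wild-type (blue), with the same probe in Myd88KO on all 5 arrays (red). The points run from -1.79 for Gsta3 to 2.59 for Hpx in wild-type, the comparison that selected them, so that the smaller values in Myd88KO are no comparison of the genotypes.

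Cell markers moved with injury in the same arrays. In wild-type, 2 of 4 club and secretory genes fell, Scgb1a1 by 7.91 and Scgb3a2 by 5.77, and 3 of 5 macrophage genes and 1 of 5 neutrophil genes rose, among them Cd68 by 3.27 (adjusted p = 0.000907, limma). The summed level of the club and secretory list was 10.2 to 11.1 in WT-control and 9.31 to 9.57 in WT-injury, and that of the macrophage list 2.16 to 2.47 and 3.55 to 4.95. In Myd88KO, Scgb1a1 fell by 6.24, and 0 macrophage or neutrophil genes were called. No ciliated, basal, fat, muscle, cartilage or thyroid gene of the lists was called in either injury comparison. The part of these cell changes in the levels of the antioxidant genes was not tested.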

How the data were processed

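Total RNA of whole tracheas was hybridized to one-colour arrays. The authors deposited Feature Extraction 9.5.1.1 scanner output, whose processed intensity (background subtracted, spatial trend removed) was used here, and a table of the same intensity rounded, used as an alternative. Groups came from sample titles. Control spots (1639 of 45018) and outlier spot values (1960, none of a member) were left out, and spots of 1 probe were averaged. The log2 intensity minus the 75th percentile of the array was fitted in limma 3.58.1 (R 4.3.3; lmFit, contrasts, eBayes) on all 20 arrays, as 5 contrasts, with Benjamini-Hochberg adjustment within each. The number of arrays, 5 per group, limits the precision. The fit was tested on simulated data. Members and gene lists were chosen with earlier results of these data known. Named genes are all members, pathway genes past the threshold, cell markers, Myd88, and the 5 genes most like Nnt. Probes were named through RefSeq (GRCm38.p6; 22951 by accession, 6659 by symbol, 3109 by older symbol, 8455 kept the array's name). Arrays of the same replicate number shared a slide: replicates 1, 2, 3, 4 and 5 lay on slides 5, 1, 2, 3 and 4. Over 30 same-numbered pairs of arrays from different groups, deviations from group means correlated at -0.26 to 0.48 (median 0.24), above 0.1 in 23. Over 120 differently numbered pairs the median was -0.08, with 35 above 0.1. Arrays of 1 slide were thus more alike than other arrays. The main fit nevertheless holds no slide block, as the study's methods name none, and the block was an alternative. Alternatives were background correction, scaling, filters, blocks, array weights, the methods' one-way test and leaving out arrays. No column belonged to other samples. Sex was not used. A further marker check is not reported here. Mice were 4 months old per the labels, whereas the study's methods give a wider range.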

Additional observations from a re-analysis of the deposited data

Results flagged for a closer look

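In 68 tests of a group of 5 arrays (17 probes in 4 groups), 4 arrays (5.88%) lay far from the others of their group, and chance flags about 1 in 20 groups. Txnrd1 was at 2.91 on KO-injury array 3, against 3.57 to 3.70 on the other 4. Srxn1 probe 1 was at 1.83 on WT-injury array 1, against 2.21 to 2.28. Srxn1 probe 2 was at -1.96 on WT-injury array 3, against -1.58 to -1.45, so the 2 Srxn1 probes single out different arrays. Nnt probe 2 was at -0.75 on KO-injury array 1, against 0.26 to 0.51, the array on which the other Nnt probes were also the lowest of the knockouts.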

How the results depend on the processing

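Nnt was higher in the knockout in all 84 values from other settings (3 probes, 2 comparisons; 76 called; 1.20 to 1.86) and in all 120 with 1 array left out (101 called; 1.09 to 1.88). In injured tracheas, 0 member probes were called when only the 2 groups compared were fitted, and 0 by the methods' one-way test, which gives no value for the difference in response. Injury in wild-type called 1 member probe, Gclc, with normexp, with quantile normalization, with the 75th percentile over probes well above background on all arrays, with only the groups compared, with scan day as a block, with array weights and, in the replicate block by slide, 1 as well, and 1 without KO-injury arrays 1 and 5. Over all tested probes, injury in wild-type then called 1112 to 2598, against 1372. Leaving out KO-injury arrays can change the shared spread and the set of tested probes in this comparison, and not the wild-type difference. The replicate block changed no other member call. Injury in Myd88KO called 3 with array weights (Gclc and Nfe2l2 probes 1 and 2) and 1 (Gclc) without KO-injury arrays 1 and 5, where calls over all tested probes rose from 98 to 1901 and 1968. Leaving out 1 array gave 2 to 3 member probes in uninjured tracheas, 1 to 3 in injured ones (1 without WT-injury 3 or 5, or KO-injury 2 or 3), 0 to 1 with injury in wild-type (Gclc, without KO-injury 5), and 0 to 1 in Myd88KO (Nnt probe 1, -0.83, without KO-injury 5, where 1072 of all tested probes were called). Pathway genes called with injury in wild-type were 18 with array weights, 5 by the one-way test and 5 to 13 with 1 array left out (5 without WT-injury 1), where all tested probes gave 2598, 1049 and, without WT-injury 1, 663. In Myd88KO they were 16 with array weights, 17 without KO-injury arrays 1 and 5, and 0 to 5 with 1 array left out (1 without KO-injury 1, 5 without KO-injury 5). The disagreement of Nnt probes 1 and 3 in injured tracheas turned from -0.16 to 0.10 with normexp. The cause was not tested.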
